A study of Mus musculus with 3 samples.

Results

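The Msx and Dlx genes, 8 homeobox genes (Msx1, Msx2 and Dlx1 to Dlx6) of 22367 protein-coding genes in the annotation, were examined in ChIP-seq peak lists from mouse distal forelimbs. They were chosen by name, and every peak that overlapped one of these genes or lay within 200 kb of its start was taken, together with the peaks between Dlx6 and Dlx5 and those on exons of the neighbouring gene Dync1i1. The 8 genes lie in 5 loci, because Dlx1 and Dlx2, Dlx3 and Dlx4, and Dlx5 and Dlx6 are pairs of neighbours. These loci held 38 of the 20479 peaks of RNA polymerase II (RNAP2) and 11 of the 10634 peaks of Med12, and with the Dync1i1 exons the numbers were 40 and 13.

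Msx and Dlx proteins are related homeodomain transcription factors that bind short AT-rich DNA motifs. In the limb bud, Msx1 and Msx2 respond to bone morphogenetic protein (BMP) signals in the distal mesenchyme and in the apical ridge, the ectodermal rim that keeps the bud growing, and Dlx genes, Dlx5 and Dlx6 above all, act in the ridge and later in cartilage and bone. Med12 is a subunit of Mediator, a large complex that links factors bound at enhancers to RNAP2 at promoters. RNAP2 itself is found at the starts and bodies of transcribed genes and also, at lower levels, at many active enhancers.

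The series holds 3 libraries from embryos at E12.5 after normal gestation, with no mutation, transgene or drug named: 1 with an antibody to RNAP2, 1 with an antibody to Med12 and 1 input without antibody, for which no peak list was used here. Distal forelimbs were dissociated with collagenase into single cells and fixed with formaldehyde, so that each library is a mixture of all cell types of that tissue. The sample labels give E12.5 and the series text gives E11.5. With 1 library for each antibody there are no replicates, no test could be made, and the lists hold no read counts, so that no depth or error can be given for a single peak.

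Each peak has a score, 10 times the negative log10 of the peak caller's p-value, which grows with the depth of the library and the width of the peak. Scores were therefore ranked within a list and not compared between lists. The RNAP2 list has a median score of 123 and a median width of 1328 bp, the Med12 list a median score of 56.8 and a median width of 972.5 bp, and both reach down to a score of 40. The score of 311 RNAP2 peaks is 3100, and that of 18 others is higher. Markers of limb mesenchyme had RNAP2 at the start in 7 of 8 cases, Msx1 itself among them, cartilage markers in 2 of 3, muscle markers in 1 of 5 and endothelial markers in 1 of 4, beside 40% of all coding genes. None of the 6 markers of surface ectoderm, of the 4 of blood or of the 5 of neurons had a peak there. In such bulk chromatin, binding in fewer cells and weaker binding in each cell cannot be told apart.

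The RNAP2 peak scores at the starts of the 8 genes covered a wide range. An RNAP2 peak lay within 1 kb of the start of 6 genes, all but Dlx3 and Dlx4, where 40% of all coding genes had one. In descending order the scores were 3100 at Msx1, 1834 at Msx2, 1111 at Dlx6, 467 at Dlx2, 295 at Dlx1 and 273 at Dlx5. The median over the 8953 coding genes with an RNAP2 peak at the start was 386 and the 90th percentile 1855, so that Msx1 was above that percentile, Msx2 just under it and Dlx1 and Dlx5 below the median. Without replicates the spread is unknown, and the order of close neighbours such as Dlx1 and Dlx5 cannot be taken as a difference. Med12 had no peak within 1 kb of any of the 8 starts, against 8.2% of all coding genes with one and 7.58% with peaks of both lists, so that 0 of 8 is not far from the background.

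The peaks differed in width in the same order. Since the score grows with the width, score and width are not independent measures here. The peak at Msx1 was 13214 bp wide, the one at Msx2 12323 bp, that at Dlx6 6763 bp, that at Dlx2 4242 bp, that at Dlx1 1968 bp and that at Dlx5 1439 bp. The median over coding genes with a peak at the start was 1490 bp and the 90th percentile 2544 bp, so that 4 of the 6 were beyond that percentile. Of all 20479 RNAP2 peaks, 31 were at least 10000 bp wide, and the Msx1 and Msx2 peaks ranked 16 and 20 by width. The Msx1, Msx2 and Dlx2 peaks covered the whole gene from start to end, which was the case for 0.925% of coding genes. The genes themselves are short, from 3346 bp for Dlx2 to 6194 bp for Msx2, so that a wide peak can span them.

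**Figure D1:**
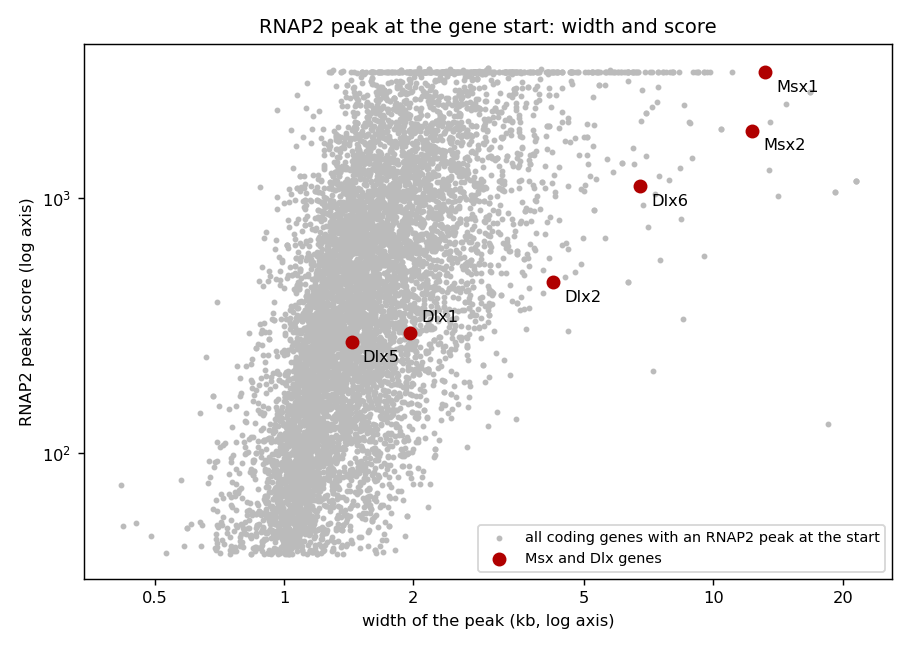
Width of the highest-scoring RNAP2 peak within 1 kb of a gene's start (kb, log axis) against its score (log axis) for 8953 coding genes (grey) and 6 Msx and Dlx genes (red, named). Msx1 and Msx2 sit at the wide end at 13214 and 12323 bp, Dlx6 and Dlx2 are wider than most genes of their score, and Dlx1 and Dlx5 lie within the grey cloud; the row of points at 3100 is the score that many peaks share.

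Msx1, which encodes a transcriptional repressor of distal limb mesenchyme, had the highest-scoring and widest RNAP2 peak of the family. The gene lies on the minus strand at chr5:38211724-38215822 (mm9), and its peak at chr5:38207910-38221123 began 5301 bp upstream of the start and went on 3814 bp past the end of the gene. Within 200 kb of the start there were 10 RNAP2 and 4 Med12 peaks, where the medians over all coding genes were 4 and 1. All 4 Med12 peaks around Msx1 overlapped an RNAP2 peak, beside 42.7% of all Med12 peaks. They lay upstream of the gene and were intergenic and over 1 kb from any coding start. At least 1 such shared site within 200 kb was found for 27% of coding genes, and 4 or more for 1.71%.

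The 4 shared sites upstream of Msx1 lay at increasing distance from its start. The nearest, at 70695 bp, had a Med12 score of 63.3 and an RNAP2 score of 49.2. The next, at 93077 bp, had a Med12 score of 216 and an RNAP2 score of 340. The one at 142445 bp had a Med12 score of 66.7 and an RNAP2 score of 105, and the farthest, at 177760 bp, a Med12 score of 279 and an RNAP2 score of 150. The second and the fourth thus stood apart from the other two, at ranks 489 and 308 of the Med12 list. The other RNAP2 peaks of the locus were weak, with scores of 49.0 to 82.6, among them one at the start of Stk32b, a kinase gene, and no Med12 peak lay on the 3' side.

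The centres of the strongest of these sites, the pair upstream of Msx1 and the single site of the Msx2 locus described further on, are shown. They had the highest Med12 scores among the shared sites of the Msx1 and Msx2 loci. Which genes they act on was not tested. Capitals mark matches on either strand to TAATTA and TAATTG (homeodomain cores), CAATAAA (preferred by posterior Hox proteins), TCAAAG (part of the Tcf/Lef motif), GGCGCC (bound by BMP-activated Smads) and GACCACCCA (Gli). No matches overlap each other in these windows. Each is the middle 300 bases of the Med12 peak, read on the plus strand of mm9.
Msx1 site at chr5:38309208-38309507: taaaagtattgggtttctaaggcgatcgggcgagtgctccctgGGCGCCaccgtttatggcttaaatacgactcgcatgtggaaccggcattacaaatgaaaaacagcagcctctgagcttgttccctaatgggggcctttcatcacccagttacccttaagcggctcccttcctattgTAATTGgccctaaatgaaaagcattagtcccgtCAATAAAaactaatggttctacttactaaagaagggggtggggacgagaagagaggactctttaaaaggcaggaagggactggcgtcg
Msx1 site at chr5:38394109-38394408: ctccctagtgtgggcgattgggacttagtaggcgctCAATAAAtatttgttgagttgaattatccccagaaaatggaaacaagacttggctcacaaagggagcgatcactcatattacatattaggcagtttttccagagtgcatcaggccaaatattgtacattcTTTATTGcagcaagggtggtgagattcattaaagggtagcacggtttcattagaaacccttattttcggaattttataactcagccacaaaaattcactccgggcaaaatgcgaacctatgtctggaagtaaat
Msx2 site at chr13:53405018-53405317: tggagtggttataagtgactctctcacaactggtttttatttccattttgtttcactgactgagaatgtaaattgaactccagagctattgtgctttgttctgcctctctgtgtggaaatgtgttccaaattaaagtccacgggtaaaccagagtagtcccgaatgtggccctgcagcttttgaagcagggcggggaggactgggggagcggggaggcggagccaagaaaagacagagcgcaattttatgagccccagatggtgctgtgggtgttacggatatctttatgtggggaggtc
The first holds 1 match each to the Smad word, to the homeodomain word ending in G and to the Hox word, the second holds 2 matches to the Hox word, and the third holds none of the 6. Among the middle 300 bases of all 10634 Med12 peaks, the Hox word was found in 11.1%, the homeodomain word ending in G in 16.5% and the one ending in A in 11.9%. The Tcf/Lef word was found in 20.8%, the Smad word in 5.05% and the Gli word in 0.292%, so that the commoner of these words are found often in windows of this length. The GC content of the windows was 48.3%, 40.3% and 48.3%, around the median of 42.3% for all Med12 peaks.

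Msx2, the close relative of Msx1 and also a repressor induced by BMP, had an equally broad RNAP2 domain but another arrangement of Med12. The gene is at chr13:53562250-53568443 on the minus strand. Its RNAP2 peak at chr13:53557128-53569450 reached 1007 bp upstream of the start and 5122 bp past the end, and a separate peak, 2358 bp wide and scoring 2642, higher than the peak over the gene, began 1682 bp upstream of the start at chr13:53570126-53572483. A pair of Med12 peaks lay under the wide RNAP2 peak beyond the 3' end of the gene, at 7322 and 8622 bp from the start, with low scores of 41.9 and 63.8. They are the Med12 peaks closest to any of the 8 genes.

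Within 200 kb of Msx2 there were 8 RNAP2 and 5 Med12 peaks, and 27.8% and 7.94% of coding genes had at least as many. RNAP2 overlapped 4 of these Med12 peaks, beside 42.7% of all Med12 peaks. Of the 5 Med12 peaks, 3 scored under 50, the score of the p-value threshold in the methods, and 2 remained at a score of at least 50. The strongest Med12 peak, at chr13:53404575-53405760 with a score of 205, lay 162682 bp from the start on the 3' side, between Ror2 and Sptlc1. It overlapped an RNAP2 peak with a score of 906, rank 2272 of that list, and was the 1 shared site of this kind in the locus. At least 1 such site was found for 27% of coding genes. Ror2, which encodes a Wnt5a receptor needed for limb outgrowth, had RNAP2 (1094) and weak Med12 (43.8) at its start. Sptlc1, an enzyme gene of sphingolipid synthesis, had RNAP2 alone (250). The shared site lies closer to Ror2 than to Msx2, and its position does not say on which gene it acts.

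**Figure D2:**
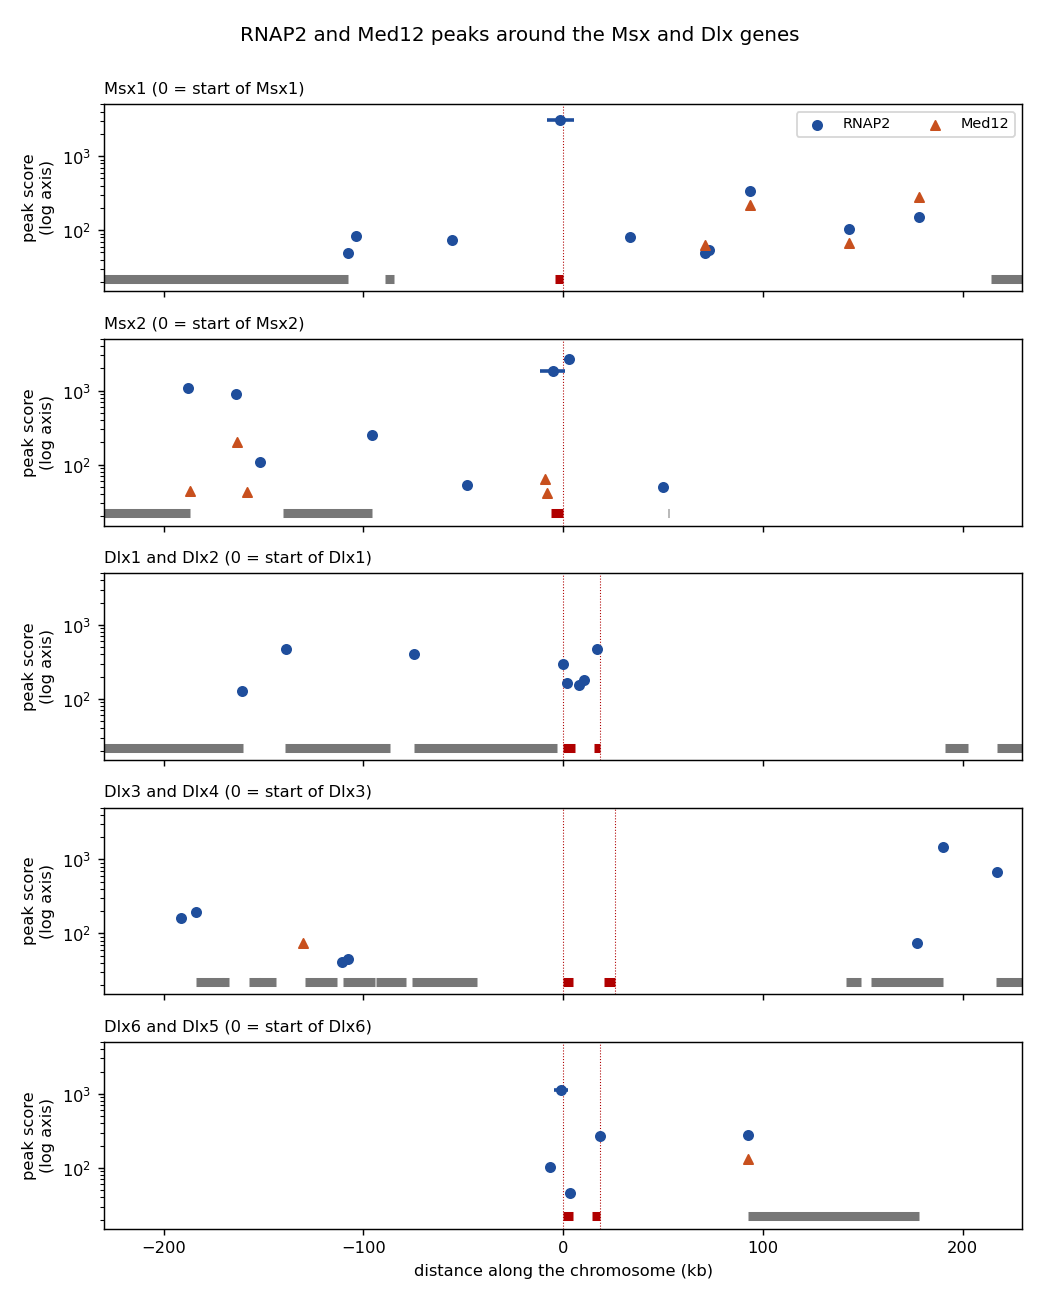
RNAP2 peaks (blue circles) and Med12 peaks (orange triangles) within 200 kb of the Msx and Dlx genes, by position along the chromosome relative to one start of each locus (kb) and by score (log axis); blue lines are peak widths, red bars and dotted lines the Msx and Dlx genes and their starts, and grey bars other coding genes. The Msx1 and Msx2 panels hold 4 and 5 Med12 peaks, the Dlx1 and Dlx2 panel none, and no peak lies within 100 kb of Dlx3 or Dlx4.

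Dlx6 and Dlx5, the pair best known for limb defects such as split hand and foot, differed from each other in RNAP2 although their starts are 18751 bp apart. Dlx6, at chr6:6813334-6818568 on the plus strand, had a 6763 bp peak that scored 1111 and began 4424 bp upstream of the start. It was followed by a weak peak inside the gene with a score of 46.0. A further peak upstream, with a score of 102, lay 5847 bp from the start. Dlx5, at chr6:6827805-6832085 on the minus strand, had a single narrow peak (1439 bp, score 273) at its start, which covered 18.9% of the gene. The noncoding gene Dlx6os1 starts within 1 kb of the Dlx6 peak, and since the lists carry no strand, RNAP2 on the 2 genes cannot be told apart.

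No peak of either list lay in the 9236 bp between Dlx6 and Dlx5. Within 200 kb of their starts there were 5 RNAP2 peaks and 1 Med12 peak, the latter at the start of Acn9, a gene for a mitochondrial assembly factor, where Med12 scored 133 and RNAP2 274. Of all coding genes, 49.2% had at least 5 RNAP2 peaks and 73.9% at least 1 Med12 peak within 200 kb. No shared site away from coding starts was found within that distance, where 27% of coding genes had at least 1.

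Farther away, the exons of Dync1i1, a gene for an intermediate chain of the dynein motor, are known from reporter assays to include limb enhancers of Dlx5 and Dlx6. Dync1i1 lies at chr6:5675639-5978039, and its end is 835295 bp before the start of Dlx6. Of its 17 exons, exon 15 and exon 17 were covered by peaks, each by RNAP2 and Med12 together. Exon 15, at chr6:5956270-5956410, had an RNAP2 score of 132 and a Med12 score of 92.2. Exon 17, at chr6:5977372-5978039, which has 108 bp of coding sequence and 560 bp of 3' UTR, had an RNAP2 score of 381 and a Med12 score of 189. The second of these Med12 peaks ranked 650 in its list and was the strongest of the region, and no peak of either list lay at the start of Dync1i1. Peak lists do not link a site to the gene it acts on.

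The coding parts of these exons are shown in capitals with the flanking intron in lower case, on the plus strand of mm9. At both exons the peaks extended well beyond the exon. The middle of the Med12 peak at exon 15 lay in the intron before it, and at exon 17 in the 3' UTR. Neither middle is inside the window shown.
Dync1i1 exon 15 at chr6:5956191-5956489: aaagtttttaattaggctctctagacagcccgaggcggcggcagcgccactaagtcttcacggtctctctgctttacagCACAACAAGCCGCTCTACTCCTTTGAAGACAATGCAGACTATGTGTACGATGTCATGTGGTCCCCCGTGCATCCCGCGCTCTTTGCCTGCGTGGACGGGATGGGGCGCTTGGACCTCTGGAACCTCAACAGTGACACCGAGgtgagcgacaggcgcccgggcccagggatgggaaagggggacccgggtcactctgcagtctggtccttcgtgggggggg
Dync1i1 exon 17 at chr6:5977180-5977479: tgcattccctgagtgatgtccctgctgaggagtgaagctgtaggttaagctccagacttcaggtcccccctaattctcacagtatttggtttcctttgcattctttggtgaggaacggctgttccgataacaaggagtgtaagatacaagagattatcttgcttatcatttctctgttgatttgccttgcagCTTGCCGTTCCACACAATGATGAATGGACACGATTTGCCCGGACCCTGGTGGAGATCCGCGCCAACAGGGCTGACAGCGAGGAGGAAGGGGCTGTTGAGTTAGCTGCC
The first window holds a match to the homeodomain word TAATTA in the intron before the exon, and to the Tcf/Lef and Smad words, while the second holds none of the 6 words. This holds for the window only and not for the whole site at exon 17. Elsewhere in its Med12 peak there is 1 match each to a homeodomain word, the Hox word, the Tcf/Lef word and the Smad word. None of these matches lies in the middle 300 bases of that peak.

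Across the whole 1156447 bp from the start of Dync1i1 to the start of Dlx5 there were 13 RNAP2 and 9 Med12 peaks. All 9 Med12 peaks were more than 200 kb from Dlx6. RNAP2 overlapped 6 of them, beside 42.7% of all Med12 peaks, and 5 of these 6 were away from coding starts. Besides the exons, the shared sites were a site in an intron of Dync1i1 (RNAP2 110, Med12 45.6), another in an intron of Shfm1 (107 and 121) and one between Shfm1 and Dlx6 (63.5 and 70.7), the last 278614 bp from the start of Dlx6. Shfm1, a gene for a small proteasome subunit named after the split hand and foot malformation, had RNAP2 (932) and Med12 (51.5) at its start. No peak was found between 278614 and 5847 bp upstream of Dlx6, so that the sites shared by both lists and the Dlx genes were separated by a long empty stretch.

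**Figure D3:**
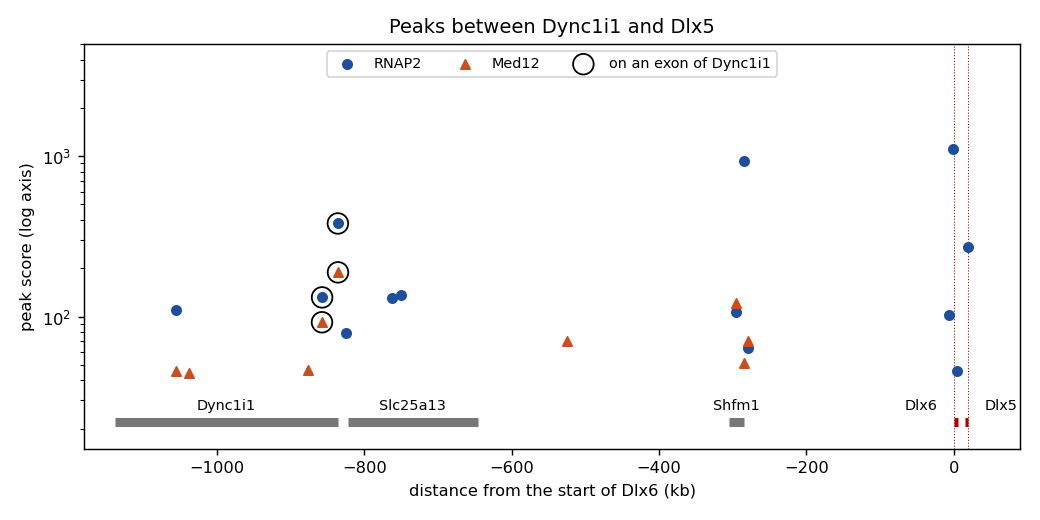
RNAP2 (blue circles) and Med12 (orange triangles) peaks from Dync1i1 to Dlx5 by distance from the start of Dlx6 (kb) and by score (log axis); black rings mark peaks on exons of Dync1i1, grey bars are other coding genes and red bars Dlx6 and Dlx5. The ringed pairs score 132 and 92.2 at exon 15 and 381 and 189 at exon 17, and no Med12 peak lies to the right of Shfm1 and its neighbouring site.

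Dlx1 and Dlx2, a convergent pair best known for interneuron and jaw development, had moderate RNAP2 and no Med12. Dlx1, at chr2:71366170-71372038 on the plus strand, had a 1968 bp peak at its start that scored 295 and a second one inside the gene that scored 163, and 52.5% of the gene was covered. Dlx2, at chr2:71381466-71384811 on the minus strand, was covered whole by a 4242 bp peak that scored 467 and ranked 340 by width. Between the genes, whose starts are 18641 bp apart, lay RNAP2 peaks with scores of 155 and 182, both within 1 kb of a start of the antisense gene Dlx1as. A start of Dlx1as also lies within 1 kb of the peak at the Dlx1 start, and without strand RNAP2 on Dlx1 and on Dlx1as cannot be told apart. RNAP2 thus had 5 peaks from one start to the other, where there were 3 from the start of Dlx6 to that of Dlx5, and 2 peaks wholly between the genes, where there were 0 between Dlx6 and Dlx5.

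The other 3 RNAP2 peaks around Dlx1 and Dlx2 were at the starts of Slc25a12 (128), Hat1 (471) and Metap1d (406), genes of a mitochondrial carrier, a histone acetyltransferase and a methionine aminopeptidase. There was no Med12 peak within 200 kb of either gene, as for 26.1% of coding genes, and the nearest one, with a score of 96.3, was 413816 bp from the start of Dlx1 and 432457 bp from that of Dlx2.

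Dlx3 and Dlx4, known for roles in skin, hair, tooth and placenta, had no RNAP2 or Med12 peak at the start or anywhere in the gene. Dlx3 is at chr11:94981403-94986610 on the plus strand and Dlx4 at chr11:95001770-95007577 on the minus strand, with starts 26174 bp apart. The nearest RNAP2 peak, in an intron of Samd14, had a score of 44.9 and was 107338 bp from the start of Dlx3 and 133512 bp from that of Dlx4. The nearest Med12 peak, at the start of Ppp1r9b, had a score of 75.1 at 129806 and 155980 bp. The RNAP2 peaks within 200 kb included those at the starts of Col1a1, the bone collagen gene (193), Samd14 (41.3), the histone acetyltransferase gene Myst2 (1450) and Fam117a (681). None of the 7 RNAP2 peaks overlapped Med12, where 21.7% of all RNAP2 peaks did. A missing peak means only that none passed the peak caller's threshold in 1 library.

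The sequence at these starts did not set them apart in CpG content. In the 1000 bases around the start there were 57 CG dinucleotides at Dlx3 and 59 at Dlx4, within the range of the 6 genes with an RNAP2 peak, from 31 at Dlx1 to 72 at Dlx2, with 66 at Msx1, 63 at Dlx6, 55 at Dlx5 and 47 at Msx2. The median was 68 over coding genes with RNAP2 at the start and 16 over those without, so Dlx3 and Dlx4 had far more CG dinucleotides than the typical gene without RNAP2. The 250 bases upstream of the starts of Msx1, with the highest RNAP2 score, and of Dlx3 and Dlx4 are shown 5' to 3' on the strand of the gene (mm9), with CG in capitals.
Msx1, minus strand, chr5:38215823-38216072: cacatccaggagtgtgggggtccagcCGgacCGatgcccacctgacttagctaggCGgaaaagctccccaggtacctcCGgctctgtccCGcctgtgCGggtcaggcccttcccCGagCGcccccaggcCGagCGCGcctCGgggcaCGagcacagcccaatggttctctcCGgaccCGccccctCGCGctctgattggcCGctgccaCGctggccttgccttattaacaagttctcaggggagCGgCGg
Dlx3, plus strand, chr11:94981153-94981402: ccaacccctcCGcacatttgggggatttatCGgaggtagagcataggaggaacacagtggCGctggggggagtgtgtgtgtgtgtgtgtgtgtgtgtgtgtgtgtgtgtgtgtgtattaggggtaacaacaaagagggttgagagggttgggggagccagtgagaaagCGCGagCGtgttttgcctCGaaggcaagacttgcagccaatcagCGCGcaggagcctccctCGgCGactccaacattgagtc
Dlx4, minus strand, chr11:95007578-95007827: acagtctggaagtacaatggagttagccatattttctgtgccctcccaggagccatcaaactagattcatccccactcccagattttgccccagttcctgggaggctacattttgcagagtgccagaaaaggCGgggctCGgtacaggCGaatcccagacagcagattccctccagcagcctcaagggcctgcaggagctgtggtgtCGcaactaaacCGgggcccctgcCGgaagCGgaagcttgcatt
They hold 21, 11 and 7 CG dinucleotides in the order shown. The number in this window did not follow RNAP2 over the family, since Dlx2 had 24 but Dlx5 9, Msx2 5, and Dlx1 and Dlx6 3 each.

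The limit of 200 kb left out further peaks at some loci. The farthest RNAP2 peak inside it was 186363 bp from Msx2 and the nearest outside 205635 bp (scores 1094 and 170). For Msx1 they were at 177763 and 207684 bp (150 and 154), for Dlx3 and Dlx4 at 190525 and 237447 bp (161 and 167), for Dlx1 and Dlx2 at 159892 and 277097 bp (128 and 64.0), and for Dlx5 and Dlx6 at 73299 and 252452 bp (274 and 41.2). The nearest Med12 peaks outside it were 205878 bp from Msx2, 238872 bp from Msx1 and 237769 bp from the nearer of Dlx3 and Dlx4.

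Among 39 other homeobox genes of the same NKL class, 16 had RNAP2 at the start and none had Med12, beside 40% and 8.2% of all coding genes. Msx3, the third Msx gene, was among those without a peak at the start. The highest score in this class was 698 at Emx2, followed by 605 at Nkx6-1, 555 at Tlx3 and 454 at Tlx2, all below the 3 highest of the Msx and Dlx genes, which were chosen by name and are not a sample of the class. By 4 values a gene (the number of RNAP2 and of Med12 peaks within 200 kb and both scores at the start, each as log2 of value plus 1), the genes most like Msx1 were Emx2 (Euclidean distance 2.29), Tlx3 (2.63) and Tlx2 (2.86). For Msx2 they were Emx2 (1.71), Tlx3 (1.84) and Nkx6-1 (2.22), and for Dlx6 Emx2 (1.06), Nkx6-1 (1.20) and Tlx3 (1.66). Dlx1 was nearest to Nkx3-2 (0.62), Hlx (0.73) and Barhl2 (1.15), Dlx2 to Nkx3-2 (1.05), Barhl2 (1.22) and Hlx (1.35), and Dlx5 to Hhex (0.26), Nkx3-2 (1.00) and Hlx (1.15). No gene in this comparison had Med12 at the start, so that the Med12 score there added nothing to the distances.

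Of 21 genes of the BMP pathway, which acts upstream of the Msx genes in the limb, 18 had RNAP2 at the start and 7 had Med12, beside 40% and 8.2% of all coding genes. By role, the counts with RNAP2 were 2 of 3 ligands, 4 of 4 receptors, 4 of 4 signal transducers, 4 of 6 inhibitors and 4 of 4 Id genes, which like Msx1 are direct targets of the pathway. The 4 Id genes all had an RNAP2 score of 3100, as Msx1 did. That score is shared by 311 RNAP2 peaks, so it does not show equal signal. Id1, Id2 and Id3 also had Med12 at the start, with scores of 1759, 145 and 500, whereas Msx1, Msx2 and Id4 had none. Among the inhibitors, Smad6 (RNAP2 3100, Med12 312) and Smad7 (2324 and 153) had both, and Bambi had RNAP2 alone (3102). Of the receptors and transducers, Bmpr1b (823 and 83.0) and Smad5 (1000.3 and 89.7) had both.

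**Figure D4:**
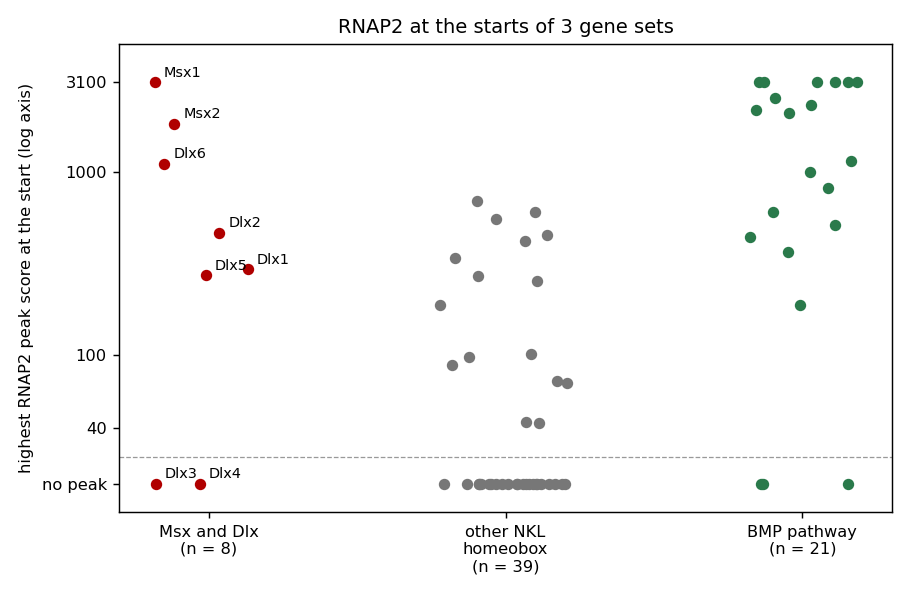
Highest RNAP2 peak score within 1 kb of the start (log axis) for the 8 Msx and Dlx genes (red, named), 39 other NKL homeobox genes (grey) and 21 BMP pathway genes (green), each point 1 gene, with genes without a peak on the lowest line and sideways spread only for legibility. Msx1, Msx2 and Dlx6 lie above all grey points, whose highest is 698, while Dlx3 and Dlx4 are on the line without a peak.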

How the data were processed

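RNAP2 and Med12 were analysed by ChIP-seq in distal forelimb cells of mouse embryos, as 1 library of each and 1 of input chromatin (3 samples, 2 with a peak list used here). Before mapping to mm9 with Bowtie, the authors cut 1 base from the 5' end of each read. Duplicate reads were set aside, and peaks were then called with MACS 1.4.1 (bandwidth 250, enrichment 7 to 30, p-value 1e-05). Use of the input as control is not given in the sources used here. The deposited score is the peak caller's own, a p-value as negative log10 multiplied by 10. The lists reach down to a score of 40, a p-value of 0.0001. They hold no counts, so no depth or counting error is given for a peak, and signal tracks were not used here.

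Peaks were intersected with the coding genes of GENCODE vM1 (mm9) with Python 3.11.15, numpy 2.4.6 and pandas 2.3.3, sharing at least 1 bp. The overlap code found the planted overlaps in simulated lists, and on the RNAP2 and Med12 lists its counts equalled those of bedtools 2.31.1. The start of a gene is the 5' end of its annotated span. A shared site is a Med12 peak that overlaps an RNAP2 peak, both more than 1 kb from any coding start. Sequences and motif matches were read from the mm9 reference, and figures were drawn with matplotlib 3.10.9. The genes and the lists (NKL homeobox, BMP pathway, apical ridge and ectoderm, skeletal differentiation, cell type markers) were chosen with earlier results of these data known. The genes named are the 8 Msx and Dlx genes, coding genes whose start has a peak within 200 kb of them, Dync1i1, up to 4 genes of each list with Med12 or the highest RNAP2 scores at the start, and the 3 NKL genes most like each of the 6 genes with RNAP2. Msx3, Shfm1, further BMP genes and single markers fall outside this rule and were named after their values were seen. Alternatives were scores of at least 50 or 100, start intervals of 5 kb, every transcript start, a neighbourhood of 100 kb, an overlap of 50% of the shorter peak and a gap of up to 500 bp. Excluding noncoding starts too from the shared sites was added after the lists had been seen.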

Additional observations from a re-analysis of the deposited data

How the results depend on the processing

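Of the counts over all loci, recomputed 32 times under 8 alternatives, 24 stayed within 1.5 times the reported value. The number of Msx and Dlx genes with RNAP2 at the start stayed at 6 and with Med12 at 0 with scores of at least 50 or 100, start intervals of 5 kb and every transcript start. With a score of at least 100, Med12 peaks within 200 kb fell from 11 to 4, those that overlap RNAP2 from 9 to 4, shared sites away from coding starts from 5 to 3 and Med12 peaks between Dync1i1 and Dlx5 from 9 to 2, as fewer peaks remain. With a neighbourhood of 100 kb there were 22 RNAP2 peaks, 5 Med12 peaks, 5 Med12 peaks that overlap RNAP2 and 2 shared sites, as less sequence is covered. Of 30 counts for single loci, 12 moved by more than 1.5 times, among them those around Dlx3 and Dlx4, where 0 peaks remained within 100 kb. The number of shared sites was still 5 with a gap of up to 500 bp allowed, with an overlap of 50% required and with the exclusion of noncoding starts, which was chosen after seeing the data. No paired analysis was possible because there is only 1 library for RNAP2 and 1 for Med12. No replicate could be left out for the same reason. The lists give no read depth at a peak, signal tracks were not used here, and a site without a peak may have signal under the threshold.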

Other observations

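Msx2 and several Dlx genes are known to act in the ectoderm of the limb bud. Of 10 genes of the apical ridge and ectoderm, 2 had RNAP2 at the start, beside 40% of all coding genes, namely Sp9, a zinc finger gene of the ridge (440, with a Med12 score of 49.5), and En1, a homeobox gene of the ventral ectoderm (423). Both scores are higher than those of Dlx1 (295) and Dlx5 (273) and lower than those of Dlx6 (1111) and Dlx2 (467). With the starts of every transcript counted, 3 of the 10 had RNAP2 and 2 had Med12. Within 200 kb of the start these genes had a median of 4 RNAP2 and 2 Med12 peaks, where the medians over all coding genes were 4 and 1. Of 7 genes of bone differentiation, in which Dlx3, Dlx5 and Msx2 act later, Col1a1 alone had RNAP2 at the start (193), beside 40% of all coding genes, and with every transcript start counted it was 2 of 7. None of the 7 had Med12, beside 8.2% of all coding genes.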
